A study of Rattus norvegicus with 9 samples.

Results

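In rat kidneys after warm ischaemia, 10 genes that kidney pathology uses as markers of tubular injury were followed: Havcr1, Lcn2, Spp1, Clu, Timp1, Vim, Cd44, Krt8, Krt18 and Krt19. They were found by their gene name on the arrays, where 13 of the 30367 gene probes carry one of these 10 names among 26115 names in all. Cd44 has 4 probes and each other marker has 1. Each array measured the RNA of 1 kidney by the brightness of Cy3-labelled cRNA at every spot, and values are given as log2 intensity, on which a difference of 1 is a doubling. A probe was tested when it stood clear of the negative control spots on at least 4 arrays, which held for 10 of the 13 marker probes and for 15836 probes in all. All 10 genes kept at least 1 probe.

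Both groups were kidneys of Fisher F344 rats taken after 20 min. of warm ischaemia. The 5 NP kidneys were not perfused. The 4 MSC kidneys were then perfused for 4 hrs at 4°C with Belzer solution (BS) that carried 3000000 mesenchymal stromal cells (MSC), which had been grown from the bone marrow of transgenic Sprague Dawley rats expressing EGFP. The groups therefore differ in the perfusion, the solution and the 4 hrs as well as in the MSC, and these cannot be told apart. The submitters' labels are divided on the NP kidneys, since the treatment field calls them not perfused, as does the study, while title and description name a perfusion with BS alone. There was no kidney without ischaemia, a further MSC array of poor quality was not analysed here, and the methods describe the removal of the left kidney of each rat, though the labels name no donor animals.

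Havcr1 encodes KIM-1, a receptor for the lipids of dying cells, and Lcn2 encodes NGAL, a carrier of siderophores that bind iron. Both are made by injured tubules and shed into the urine. Spp1 (osteopontin), Clu (clusterin) and Timp1 (an inhibitor of matrix metalloproteinases) are secreted proteins, Cd44 is a receptor for hyaluronan and osteopontin, and Vim, Krt8, Krt18 and Krt19 form intermediate filaments, the keratins in epithelia and vimentin in mesenchymal cells and in tubule cells that have lost their differentiated shape. In injury models the RNA of these genes rises in surviving tubule cells over hours to days.

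The clearest differences were in Krt8, Vim and Timp1, and their 60-base probes are shown because each result rests on a single probe. Capitals mark the longest stretch that the probe shares with a probe of any other gene name on the array, which spans 15 bases for Krt8 and 13 bases for Vim and for Timp1.
Krt8: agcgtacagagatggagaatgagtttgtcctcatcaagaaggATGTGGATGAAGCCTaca
Vim: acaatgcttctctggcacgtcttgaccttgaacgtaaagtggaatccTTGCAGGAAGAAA
Timp1: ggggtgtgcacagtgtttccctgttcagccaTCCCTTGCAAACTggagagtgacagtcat
The files place the Krt8 probe on the rat build rn4 at chr7:140716967-140717949 on the minus strand, a span of 983 bases that is longer than the probe, from base 553 of the transcript. The Vim probe lies at chr17:87851390-87851449 on the plus strand, from base 711 of its transcript. The Timp1 probe lies at chrX:12542700-12543703 on the minus strand, from base 476, and its span of 1004 bases is likewise longer than the probe. All 3 probes were printed in 10 spots per array, so that their values are means over spots.

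Among the 10 markers, 7 had a higher mean in MSC kidneys and 3 a lower one, where 48.8% of all probes were higher. Krt8, Vim and Timp1 were higher at an unadjusted limma p under 0.05, which 6.49% of all probes were, and no marker was lower, against 5.12% of all probes. No marker passed an FDR under 0.05 (Benjamini-Hochberg over all 15836 probes, limma), and no other probe did in either direction, a share of 0% each, with 1028 probes higher and 811 lower at an unadjusted p under 0.05. With arrays scaled by their median alone this balance turned, to 341 higher and 628 lower, with 41.7% of all probes higher by any amount and 2 markers at such a p. The FDR of the markers ranged from 0.334 to 0.951, and the smallest of any probe was 0.104. The median log2 fold change of the 10 marker probes was 0.29, beside -0.0048 over all probes tested, and it was 0.19 without MSC 4.

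**Figure D1:**
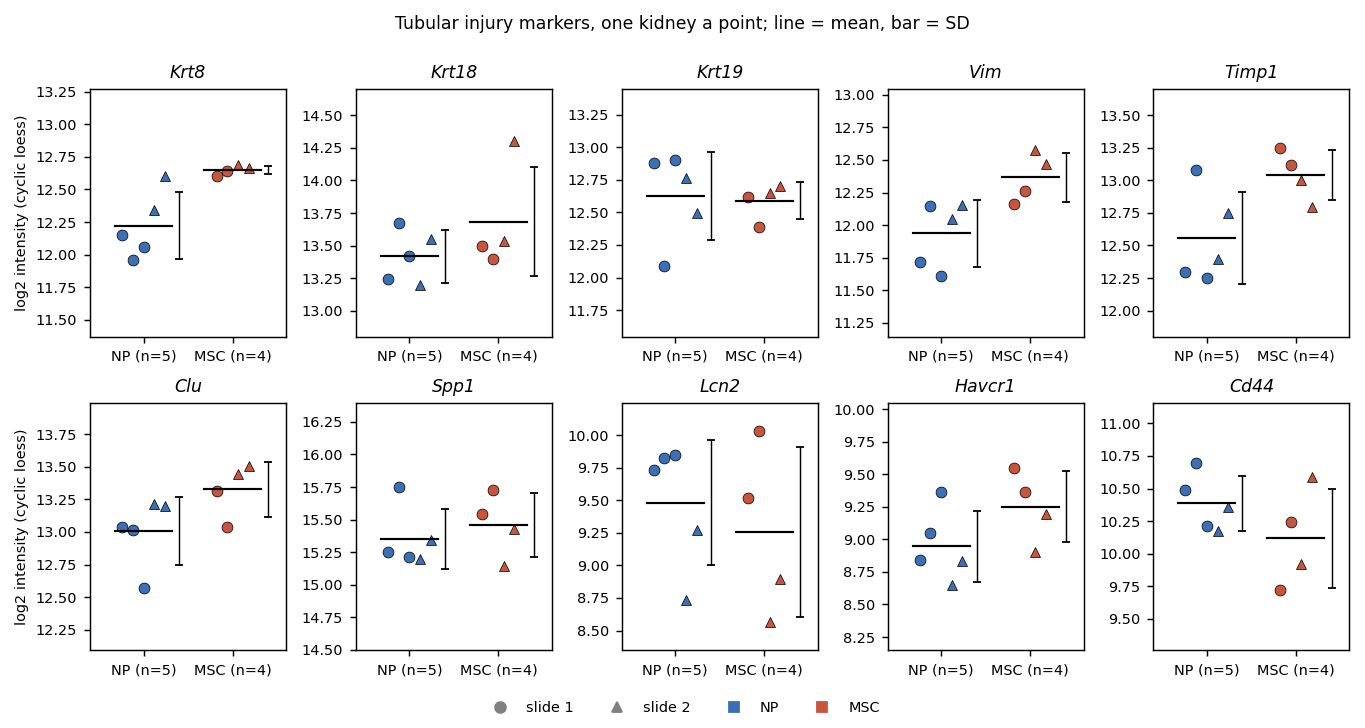
Log2 intensity (vertical axis) of the 10 tested marker probes in each NP kidney (blue, n = 5) and MSC kidney (red, n = 4), with circles for slide 1, triangles for slide 2, a line at the group mean and a bar for 1 SD on either side. The 4 MSC kidneys sit above the 5 NP kidneys for Krt8 and Vim only, and Lcn2 separates by slide.

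Krt8, a type II keratin of simple epithelia, had log2 intensities of 12.15, 11.96, 12.06, 12.34 and 12.60 in NP kidneys 1 to 5 and of 12.61, 12.65, 12.69 and 12.66 in MSC kidneys 1 to 4. The MSC kidneys were close together, with a mean of 12.65 ± 0.03 (SD, n = 4), while the NP kidneys spread over a wider range with a mean of 12.22 ± 0.26 (SD, n = 5). The log2 fold change was 0.43 (standard error 0.12, 95% interval 0.15 to 0.71), with an unadjusted limma p of 0.00657 and an FDR of 0.334. A two-sided exact permutation test, over the 126 ways to split the arrays, gave p = 0.0159. All 4 MSC kidneys were above all 5 NP kidneys, as they were for 3.12% of all probes (every MSC kidney was below for 2.13%), but the lowest MSC and the highest NP kidney were 0.0023 apart, which is less than the median SD of 0.108 between the spots of this probe. Under 6 other sources or scalings of the values the groups stayed apart in 2. With arrays scaled by their median alone the log2 fold change of Krt8 was 0.39 with an unadjusted limma p of 0.0929, with weights per array it was 0.28 with one of 0.0294, and within slide 2 it was 0.20 with one of 0.144.

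Krt18, the type I partner with which Krt8 forms filaments, was higher through 1 kidney. It stood at 13.24, 13.68, 13.42, 13.20 and 13.55 in NP kidneys 1 to 5 and at 13.49, 13.40, 13.54 and 14.31 in MSC kidneys 1 to 4, so that 3 of the 4 MSC kidneys lay within the NP range. The log2 fold change of 0.27 (standard error 0.19, 95% interval -0.15 to 0.68) had an FDR of 0.594 from limma and p = 0.254 in the exact permutation test, and it was 0.06 without MSC 4. On slide 1 the difference was -0.0002 and on slide 2, which held MSC 4, it was 0.55. The Krt18 probe starts at base 1309 of the transcript, has no rn4 position in the files, and shares 24 of its 60 bases with a probe that carries no gene symbol and had a log2 fold change of 0.26 (standard error 0.21).

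Krt19, a small type I keratin of ducts, overlapped throughout. Its values were 12.88, 12.09, 12.90, 12.76 and 12.50 in NP kidneys and 12.62, 12.39, 12.65 and 12.71 in MSC kidneys, and the MSC kidneys all fell inside the NP range. The log2 fold change was -0.04 (standard error 0.16, 95% interval -0.40 to 0.33), with an FDR of 0.951 from limma and p = 0.857 in the exact permutation test. NP 2 was the lowest kidney for Krt8 and for Krt19 and the second of all 9 for Krt18, so that within NP the keratins did not share an order.

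Vim, the intermediate filament of mesenchymal cells, stood at 11.72, 12.15, 11.61, 12.05 and 12.15 in NP kidneys 1 to 5 and at 12.16, 12.26, 12.58 and 12.47 in MSC kidneys 1 to 4. The 4 MSC kidneys were above the 5 NP kidneys, with a gap of 0.0107 between the nearest of them beside a median SD of 0.0925 between spots. The mean was 12.37 ± 0.19 (SD, n = 4) in MSC kidneys beside 11.94 ± 0.25 (SD, n = 5) in NP kidneys, so that the log2 fold change was 0.43 (standard error 0.14, 95% interval 0.12 to 0.75). Limma gave an unadjusted p of 0.0123 and an FDR of 0.334, and the exact permutation test p = 0.0317. The groups stayed apart under 5 of the 6 other sources or scalings of the values, and overlapped when arrays were scaled by their median alone. Vim differed by about the same amount on both slides, by 0.39 on slide 1 and 0.42 on slide 2.

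Timp1, which inhibits matrix metalloproteinases and signals through the tetraspanin Cd63, had the highest log2 fold change of the 10 markers at 0.49 (standard error 0.18, 95% interval 0.09 to 0.88), a fold change of 1.40. Its values were 12.30, 13.08, 12.25, 12.39 and 12.75 in NP kidneys 1 to 5 and 13.25, 13.12, 13.00 and 12.80 in MSC kidneys 1 to 4. The groups overlapped through NP 2 alone, since the other 4 NP kidneys were below every MSC kidney. The unadjusted limma p was 0.0207, the FDR 0.369 and the exact permutation p 0.0556. Without NP 2 the log2 fold change was 0.62, with an unadjusted limma p of 0.00133, and without MSC 1 the unadjusted p was 0.0622. Timp1 was higher by 0.64 on slide 1 and by 0.33 on slide 2, where the unadjusted limma p was 0.277.

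The remaining secreted proteins differed by less. Clu, a chaperone of secreted proteins, was 13.04, 13.01, 12.57, 13.21 and 13.20 in NP kidneys and 13.32, 13.04, 13.44 and 13.51 in MSC kidneys, so that 3 of 4 MSC kidneys were above the NP range. Its log2 fold change of 0.32 (standard error 0.15, 95% interval -0.01 to 0.65) had an unadjusted limma p of 0.0559, an FDR of 0.442 and an exact permutation p of 0.0952, and was 0.21 without NP 3. Spp1, a phosphoprotein that binds integrins and Cd44, was 15.25, 15.75, 15.21, 15.20 and 15.34 in NP kidneys and 15.54, 15.73, 15.14 and 15.43 in MSC kidneys. NP 2 was its highest kidney and MSC 3 its lowest, and the log2 fold change of 0.11 (standard error 0.15, 95% interval -0.22 to 0.43) had an FDR of 0.796 from limma and an exact permutation p of 0.508. It was 0.02 without MSC 2 and 0.21 without MSC 3 or without NP 2.

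The pair of markers measured in urine overlapped between the groups, and both were dim. On the raw scale the Havcr1 probe was 1.87 to 3.80 times as bright as the median negative control of its array and the Lcn2 probe 1.67 to 3.90 times, and they exceeded the limit of the filter on 8 and on 7 of the 9 arrays. Havcr1 stood at 8.84, 9.05, 9.36, 8.65 and 8.83 in NP kidneys and at 9.55, 9.36, 8.90 and 9.19 in MSC kidneys, so that MSC 1 was above the NP range and MSC 2 level with NP 3, the highest of the NP kidneys. Its log2 fold change of 0.30 (standard error 0.16, 95% interval -0.06 to 0.67) had an unadjusted limma p of 0.0956, an FDR of 0.502 and an exact permutation p of 0.127. It was 0.56 with Agilent's background-subtracted signal, scaled to the 75th percentile of each array.

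Lcn2 was 9.73, 9.83, 9.85, 8.74 and 9.27 in NP kidneys and 9.52, 10.03, 8.56 and 8.90 in MSC kidneys. The groups overlapped over nearly their whole range, and the log2 fold change was -0.23 (standard error 0.32, 95% interval -0.94 to 0.49), with an FDR of 0.808 from limma and an exact permutation p of 0.540. Single kidneys moved this value, which was -0.000039 without MSC 3 and -0.49 without MSC 2. S100a8 and S100a9, which neutrophils carry alongside NGAL, had log2 fold changes of -0.85 and -0.95, with an FDR of 0.397 and 0.423 from limma. They were the lowest of 9 leukocyte genes tested, of which 5 were higher and 4 lower with a median of 0.19, and their part in the Lcn2 value was not tested.

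**Figure D2:**
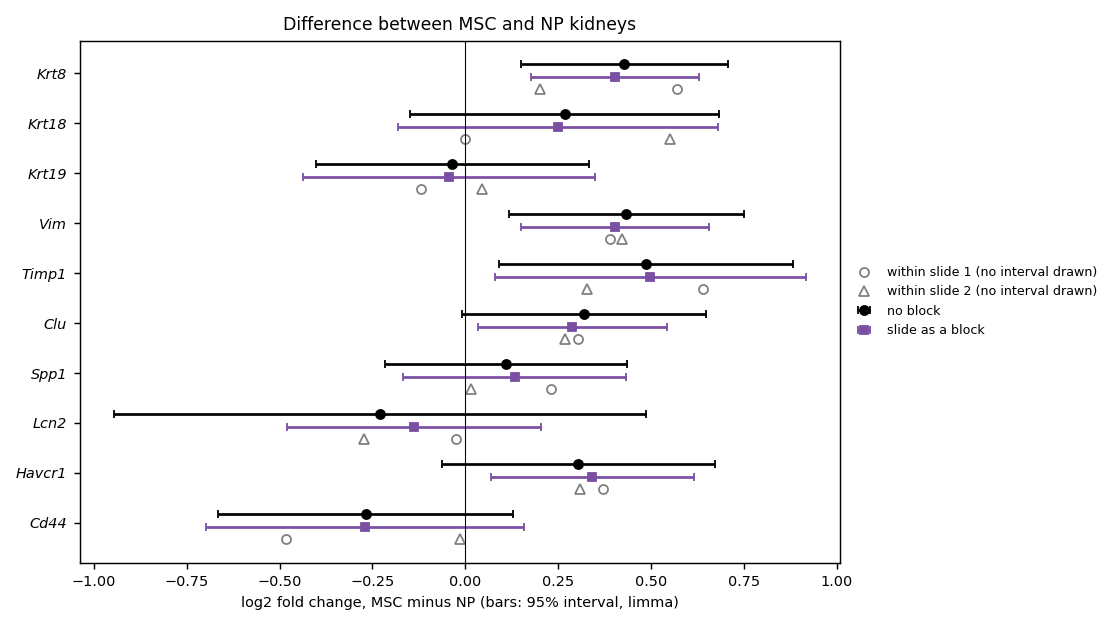
Log2 fold change of the 10 markers, MSC minus NP (horizontal axis), with its 95% interval from limma without a block (black) and with the slide as a block (purple), beside the differences within slide 1 (circles) and slide 2 (triangles). The interval without a block lies above 0 for Krt8, Vim and Timp1, and with the slide as a block also for Clu and Havcr1.

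The arrays lay on 2 slides that were each scanned on their own. Slide 1 held NP 1, 2 and 3 with MSC 1 and 2, and slide 2 held NP 4 and 5 with MSC 3 and 4. Lcn2 differed more between the slides than between the groups. It ranged from 9.52 to 10.03 on slide 1 and from 8.56 to 9.27 on slide 2, and every slide 1 kidney was above every slide 2 kidney, as was the case for 3.08% of all probes (the reverse held for 3.29%). With both terms in the limma fit, slide 2 was lower by 0.91 on the log2 scale (slide 2 minus slide 1, unadjusted p = 0.000218, FDR 0.0583), where 0.0947% of all probes passed an FDR of 0.05 for the slide. Within the slides, the Lcn2 difference between MSC and NP kidneys was -0.03 and -0.27.

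Among the marker probes, 5 of 10 differed between the slides at an unadjusted limma p under 0.05, beside 13.7% of all probes. Havcr1 (-0.37) and Lcn2 were lower on slide 2, while Clu (0.32), Vim (0.29) and Krt8 (0.25) were higher there. With the slide as a block, 5 of 10 markers were higher in MSC kidneys at an unadjusted limma p under 0.05, beside 6.91% of all probes, and none was lower, beside 5.69%. In this limma fit the log2 fold change was 0.40 for Krt8, 0.40 for Vim, 0.34 for Havcr1, 0.50 for Timp1 and 0.29 for Clu, with an FDR from 0.287 to 0.355. The sign was the same on both slides for 8 of 10 markers, all but Krt18 and Krt19. Krt8 was higher by 0.57 on slide 1 and by 0.20 on slide 2, and the test of that difference gave an unadjusted limma p of 0.0596.

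Cd44 was read differently along its transcript. Cd44 is spliced in many forms, which share their ends and differ by variable exons between them. Its probe from base 3890 of the transcript, at chr3:88023005-88023064 on the minus strand, passed the filter on all 9 arrays. It stood at 10.49, 10.697, 10.21, 10.17 and 10.36 in NP kidneys and at 9.72, 10.25, 9.92 and 10.59 in MSC kidneys. The MSC kidneys ranged from below the NP kidneys to within them, and the log2 fold change was -0.27 (standard error 0.18, 95% interval -0.66 to 0.13), with an FDR of 0.574 from limma and an exact permutation p of 0.230. MSC 1 and MSC 4 lay furthest apart, and the difference was -0.48 on slide 1 and -0.01 on slide 2. It was -0.14 without MSC 1 and -0.43 without MSC 4, where the unadjusted limma p was 0.0237.

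The other 3 Cd44 probes start at bases 1093, 1299 and 1967 of the same transcript and are shown because they gave no usable reading. Capitals again mark the longest stretch shared with a probe of another gene name.
Cd44, base 1093: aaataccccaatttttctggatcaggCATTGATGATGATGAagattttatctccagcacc
Cd44, base 1299: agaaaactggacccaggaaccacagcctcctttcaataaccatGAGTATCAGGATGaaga
Cd44, base 1967: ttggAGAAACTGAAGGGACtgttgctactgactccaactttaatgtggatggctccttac
They lie at chr3:88055398-88055457, chr3:88052458-88052517 and chr3:88041645-88041704 of rn4 on the minus strand. Over the 9 kidneys their log2 intensity was 7.83 to 8.11, 8.0 to 8.25 and 7.91 to 8.15, where 95% of the negative control spots of an array were below 7.92 to 7.98. None was above the limit of the filter on any array, and the image software called the probe at base 1299 well above background on 1 array and the others on none. No fold change is given for them. A faint signal cannot tell a form of the transcript that is scarce from a probe that binds poorly.

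**Figure D3:**
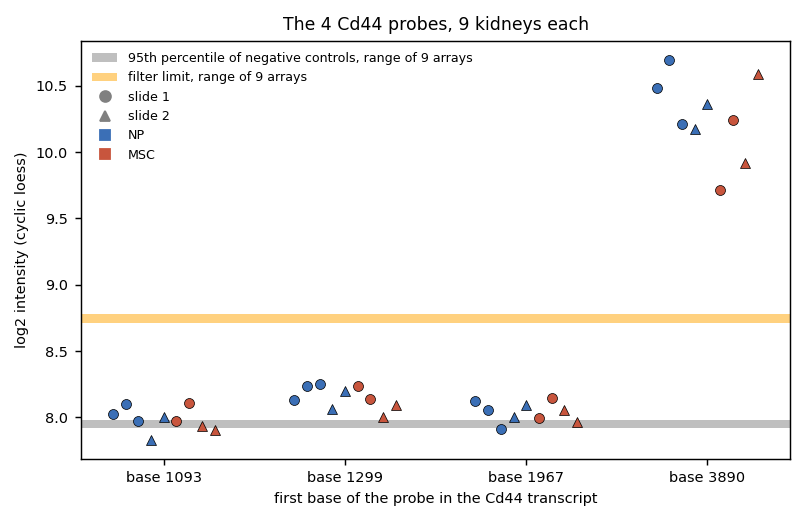
Log2 intensity (vertical axis) of the 4 Cd44 probes in order of their first base in the transcript (horizontal axis) in 9 kidneys (NP blue, MSC red; circles slide 1, triangles slide 2). The grey band is the level below which 95% of negative control spots lie, as a range over arrays, and the orange band that of the filter limit, from 8.71 to 8.78, which only the probe at base 3890 exceeds.

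Over the 10 markers, the highest kidney was an MSC kidney for 7 and the lowest an NP kidney for 7. No single kidney led them. MSC 1, MSC 3 and MSC 4 were each highest for 2 markers and MSC 2 for 1, while NP 2 was highest for Spp1 and Cd44 and lowest for Krt8 and Krt19. Each marker was centred on its mean over the 9 arrays, and the mean over the 10 markers then ranged from -0.20 (NP 4) to 0.06 (NP 2) in NP kidneys and from -0.03 (MSC 3) to 0.18 (MSC 4) in MSC kidneys. The groups overlapped in this mean.

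A list of other genes known for tubular injury and repair was set beside the markers. Of 45 listed, 39 passed the filter, and 22 were higher and 17 lower in MSC kidneys, where 48.6% of all genes tested were higher. Only Anxa1, Hbegf and Cldn4 had an unadjusted limma p under 0.05, all higher, as 6.68% of all genes were, and none was lower, beside 5.24% of all genes. No gene passed the FDR, and the median log2 fold change of the list was 0.08, beside -0.01 over all genes. This median was 0.04 without MSC 4 or with arrays scaled by their median alone and 0.05 without NP 3, and 5 genes had an unadjusted p under 0.05 without NP 2, without MSC 2 or without MSC 4. Krt20, Fgg, Il24, Plaur, A2m and Lif did not pass the filter.

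Anxa1, an annexin that damps inflammation, was 14.65 to 14.87 in NP kidneys and 15.27 to 15.97 in MSC kidneys, without overlap, as 3.12% of all probes were in this direction. The difference was 0.70 on the log2 scale (standard error 0.14, FDR 0.334, limma). Hbegf, a growth factor for tubule cells, had a log2 fold change of 1.102 (standard error 0.32) and Cldn4, a claudin of the collecting duct and thin limb, one of 0.78 (standard error 0.24), each with an FDR of 0.334. Lgals3, a lectin of injured tubules and macrophages, followed at 0.26 (standard error 0.15, FDR 0.530).

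The proteins that bind the markers were listed as partners: receptors for Lcn2, Spp1 and Clu, the metalloproteinases and their other inhibitors, hyaluronan enzymes and binding proteins of Timp1. Of 32 listed, 20 were tested, 15 higher and 5 lower, with a median log2 fold change of 0.10. Cd82 and Cd63 were higher at an unadjusted limma p under 0.05 and none was lower, beside 6.68% higher and 5.24% lower over all genes. With arrays scaled by their median alone, 0 of the 20 had such a p, and 12 were higher and 8 lower. Without NP 2 the median was 0.18 and 5 genes had such a p, as 4 did without NP 1 or without MSC 4, and the median was 0.03 with no filter and 0.07 with probes well above background on at least 4 arrays. Cd63, the tetraspanin that binds Timp1 at the cell surface, was 16.48 to 16.68 in NP kidneys and 16.78 to 16.95 in MSC kidneys, without overlap, and was higher by 0.26 on the log2 scale (standard error 0.07, FDR 0.334, limma). Cd82, a related tetraspanin, had one of 0.45 (standard error 0.11, FDR 0.334), also without overlap. Timp4, a further inhibitor of the family, was at 0.35 (standard error 0.18, FDR 0.479) and Ezr, which ties Cd44 to actin, at 0.24 (standard error 0.12, FDR 0.477). Mmp3, Mmp7 and Mmp9, targets of Timp1, and Has1, Has2 and Has3, which make hyaluronan, did not pass the filter.

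Of 25 other keratins, filament proteins and linkers listed, 11 were tested, and 3 were higher and 8 lower in MSC kidneys, where 48.6% of all genes were higher, with a median log2 fold change of -0.18. This split rested on the filter: with no filter 12 were higher and 12 lower, and with probes well above background on at least 4 arrays 8 were higher and 9 lower, with medians of 0.00088 and -0.03. The median of the 11 was -0.09 without NP 2, -0.11 without MSC 3 and -0.12 without MSC 1. Plec, which links keratin and vimentin filaments to other structures, was the only one of the 11 with an unadjusted limma p under 0.05, and it was lower, as 5.24% of all genes were (log2 fold change -0.44, standard error 0.16, FDR 0.374). Without MSC 2 or without MSC 4 none of the 11 had such a p. Nes, Des and Pkp2 had log2 fold changes of -0.48, -0.31 and -0.18, with an FDR of 0.511, 0.560 and 0.515 from limma.

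**Figure D4:**
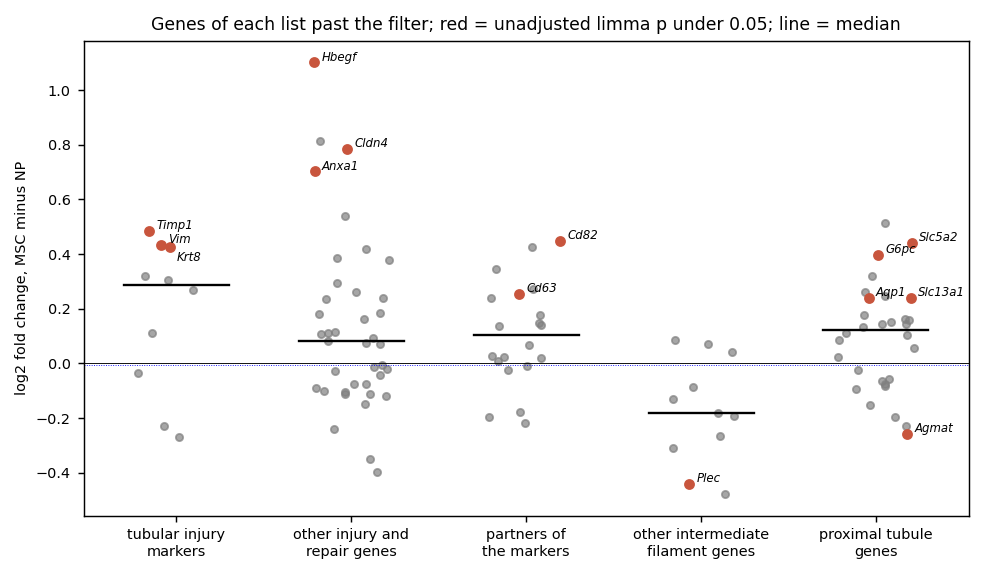
Log2 fold change, MSC minus NP (vertical axis), of each gene that passed the filter in 5 lists (horizontal axis), with red points for an unadjusted limma p under 0.05, black bars for list medians, a solid line at 0 and a dotted line at the median of all genes. The medians are 0.29 for the 10 markers, 0.08 for other injury and repair genes, 0.10 for partners, -0.18 for other filament genes and 0.12 for proximal tubule genes.

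Genes of the proximal tubule, the segment in which Havcr1 and vimentin appear after ischaemia and whose transporters are lost in injury, were all above the filter (30 of 30). Of these, 20 were higher and 10 lower, with a median log2 fold change of 0.12. At an unadjusted limma p under 0.05 there were 4 higher and 1 lower, beside 6.68% higher and 5.24% lower over all genes, and with arrays scaled by their median alone 1 of the 30 had such a p. The median was 0.03 under that scaling, 0.05 with quantile normalization, 0.06 with Agilent's processed signal scaled to its 75th percentile, 0.04 without NP 1, 0.06 without MSC 4 and 0.07 without NP 2, and 2 of the 30 had such a p without MSC 2, MSC 3 or MSC 4. Slc5a2, the glucose transporter of the early proximal tubule, was 16.60 to 17.23 in NP and 17.29 to 17.44 in MSC kidneys, without overlap, as 3.12% of all probes were in this direction. Its log2 fold change was 0.44 (standard error 0.13, FDR 0.334, limma). G6pc was at 0.40, Aqp1 at 0.24 and Agmat at -0.26, with an FDR of 0.399, 0.417 and 0.419.

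Several markers are also made by cells other than tubules, and in whole kidney a change in the number of such cells cannot be told apart from a change in RNA per cell. Lists of marker genes for other cells and segments were therefore set beside them, each summed as the mean of its genes centred over the arrays. Perirenal fat genes, of which 8 of 12 were tested (Plin1, Lep and Lipe were below the filter and Plin4 had no probe), ranged from -1.08 to 0.20 in NP kidneys and from -1.06 to 2.17 in MSC kidneys. MSC 3 (2.17) and MSC 4 (1.42) stood high, and Adipoq, the fat hormone adiponectin, was 13.83 and 12.63 there against 10.44 to 11.78 in the other 7 kidneys. There were 7 fat genes higher and 1 lower, beside 48.6% higher over all genes, 3 of them were higher at an unadjusted limma p under 0.05, beside 6.68%, and the median log2 fold change was 1.33. Vim, Clu and Krt8 were highest in these same kidneys. With MSC 3 and 4 left out, the log2 fold change was 0.28 for Vim and 0.17 for Clu, against 0.40 for Krt8. It was 0.63 for Timp1 and 0.51 for Havcr1, and that for Lcn2 turned to 0.29. MSC 3 and 4 are all the MSC kidneys of slide 2, while the NP kidneys of both slides stayed in. These shifts therefore cannot tell the part of fat from that of the slide. Within slide 1, which also lacks MSC 3 and 4, the log2 fold change was 0.39 for Vim and 0.30 for Clu. There it was 0.57 for Krt8, 0.64 for Timp1, 0.37 for Havcr1 and -0.03 for Lcn2. In the limma fit without MSC 3 and 4, which leaves 2 MSC kidneys, the unadjusted p was 0.154 for Vim and 0.0512 for Krt8. It was 0.393 for Clu, 0.0262 for Timp1, 0.0276 for Havcr1 and 0.384 for Lcn2. On slide 1 alone the unadjusted limma p was 0.0443 for Vim, 0.00113 for Krt8 and 0.0378 for Timp1. It was 0.101 for Clu, 0.0678 for Havcr1 and 0.903 for Lcn2. The part of fat in the marker values was not tested.

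Fibroblast and pericyte genes, of which 9 of 12 were tested (Lum, Postn and Fbln1 were below the filter), ranged from -0.76 to 0.73 in NP and from -0.33 to 0.40 in MSC kidneys. NP 2, the NP kidney with the most Timp1, was the highest of all in this list. Col1a1 was higher in MSC kidneys by 1.06 on the log2 scale (standard error 0.29, FDR 0.334, limma), with 5 genes of the list higher and 4 lower. Genes of mesenchymal stromal cells, of which 7 of 10 were tested, ranged from -0.61 to 0.46 in NP and from -0.12 to 0.09 in MSC kidneys, and Thy1, the defining surface marker CD90, was below the filter. Their part in the values of Vim, Timp1 and Cd44 was not tested.

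Of the segments in which keratins are made, collecting duct genes (14 of 14 tested) ranged from -0.46 to 0.08 in NP and from -0.09 to 0.45 in MSC kidneys. There were 11 higher and 3 lower, and 5 had an unadjusted limma p under 0.05, all higher, beside 6.68% of all genes, among them the sodium channel subunits Scnn1b (0.97, FDR 0.334) and Scnn1g (0.61, FDR 0.334). NP 2, the lowest kidney for Krt8 and Krt19, was also the lowest in this list, and MSC 4, the highest for Krt18, was the highest. Other kidneys went the other way. NP 3, the next lowest in this list at -0.32, was the highest kidney for Krt19, and NP 2 was the next to highest for Krt18. Of 10 thick ascending limb genes tested, 7 were higher and 3 lower, with 3 higher and 1 lower at an unadjusted limma p under 0.05, beside 6.68% and 5.24% of all genes, and a median log2 fold change of 0.24. Egf, the epidermal growth factor made in that limb, was at 1.37 and Irx1 at -0.34, with an FDR of 0.334 and 0.335. Of 10 papilla and thin limb genes tested, 4 were higher and 6 lower, with Cldn4 alone at such a p and a median of -0.02. MSC 4 was the highest kidney in both lists. Urothelium genes ranged from -0.69 to 0.42 in NP and from -1.16 to 1.35 in MSC kidneys, with 4 of 10 tested. The part of these lists in the keratin values was not tested.

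Red cell genes (4 of 6 tested) were the list with the greatest difference, all 4 lower in MSC kidneys at an unadjusted limma p under 0.05, as 5.24% of all genes were, with a median log2 fold change of -1.65. They ranged from 0.10 to 1.13 in NP and from -2.67 to 0.60 in MSC kidneys, where MSC 1 and MSC 3 were lowest. Leukocyte genes (9 of 13 tested; Cd163, Cd3e and Mpo were below the filter) overlapped, from -0.36 to 0.26 in NP and from -0.34 to 0.10 in MSC kidneys, and 2 of them, S100a8 and S100a9, were lower at an unadjusted limma p under 0.05, beside 5.24% of all genes. Podocyte genes were lowest in MSC 4, at -0.68, and had a median log2 fold change of -0.27. Endothelial genes had a median of 0.08.

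**Figure D5:**
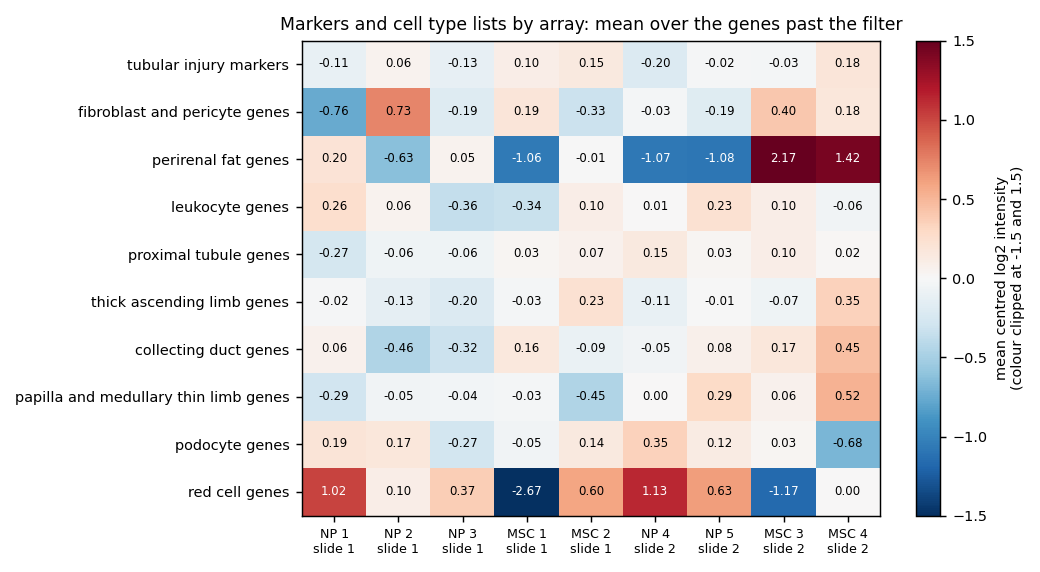
Mean log2 intensity of each list's tested genes, centred over the 9 arrays (colour and number), for the markers and 9 cell and segment lists (rows) in each kidney (columns, ordered by slide and group). The fat genes are highest in MSC 3 and MSC 4, the red cell genes lowest in MSC 1, and the markers span -0.20 to 0.18.

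Across the arrays, 67.7% to 72.9% of gene spots were well above background on NP arrays and 65.6% to 74.3% on MSC arrays, with a median raw intensity of 594 to 895 and of 577 to 917. Across probes, which are not independent replicates, Pearson's r was 0.965 to 0.997 for kidneys of 1 group and 0.971 to 0.994 for kidneys of different groups. Precision is limited by the number of arrays, and the exact permutation test can give no p below 0.00794 here.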

How the data were processed

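RNA of 5 NP and 4 MSC kidneys was hybridized to 1-colour Agilent rat arrays. The authors deposited the spot intensity of each array from Agilent Feature Extraction 10.7.3.1, with probe positions on rn4, flags for outliers and for spots well above background, and a table of normalized log2 values of 30507 rows. Here the mean pixel intensity was log2 transformed without background subtraction and normalized between arrays by cyclic loess (limma 3.58.1 in R 4.3.3, with files read by the data.table package, version 1.17.8), over 58717 gene spots and 308 negative control spots per array. Other controls and spots flagged as outliers were left out. Set against the log2 values that the authors deposited, each array had a Pearson's r of 0.99990 to 0.99997 over the probes kept.

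The methods' filter on dim probes is open to more than 1 reading. It was taken to keep a probe whose log2 value exceeded, on at least 4 arrays, 1.1 times the 95th percentile of the negative control spots on the log2 scale (15836 of 30367 probes). Spots of a probe were averaged. MSC and NP arrays were compared by limma's linear model with empirical Bayes, with the Benjamini-Hochberg FDR over all probes and a threshold of 0.05, and by an exact two-sided permutation test of single probes. For the gene lists, 1 probe was kept per gene, that with the largest variance (13929 genes). All intervals are at 95%. The members and lists were chosen with earlier results of these data known. Genes were named by rule: every marker with all its probes, up to 4 genes of smallest p from each list of related genes and up to 2 from each cell list, with more where a marker's result turns on them. All 10 markers matched current RefSeq names. As the labels name no donor animals, p-values measure the spread between these samples.

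On simulated arrays of this design with 15834 probes, 172 of 200 changed probes were called with 10 false calls (74% of 2-fold and 98% of 4-fold changes). The simulated noise was independent for each probe and array and held no slide effect. Changes as small as those of the markers, of which the highest was 1.40-fold, were not simulated. The alternatives took other intensity columns, background corrections, normalizations, filters, probes, variance models and blocks, omitted single arrays, and started from the authors' own log2 table.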

Additional observations from a re-analysis of the deposited data

Results flagged for a closer look

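In groups of 4 or 5 kidneys, a kidney was singled out when its gap to the nearest other one exceeded Dixon's 95% critical value as a share of the range of its group. Of 52 groups of values tested, 3 were singled out, where chance gives about 1 in 20, or 2.6. For Spp1 among NP kidneys, NP 2 was highest at 15.75, with a ratio of 0.741. For Krt18 among MSC kidneys, MSC 4 was highest at 14.31, with a ratio of 0.844. In the mean of the mesenchymal stromal cell genes among MSC kidneys, MSC 2 was lowest at -0.12, with a ratio of 0.853.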

How the results depend on the processing

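Of 25 alternatives, 24 were planned, 4 leave every marker's fold change as it is (both other filters, 1 probe per gene and the variance trend), and leaving out MSC 3 and 4 together was chosen after seeing the data. No marker passed an FDR of 0.05 in any of the 250 values these gave, and 7 of the values changed sign. With weights per array, which were lowest for NP 1 (0.334) and NP 2 (0.288), Lcn2 was 0.12, and 2 probes, no marker among them, were higher at an FDR under 0.05, where the count was 0 otherwise. Lcn2 was 0.29 without MSC 3 and 4, a fit with no MSC kidney of slide 2, where Lcn2 was lower by 0.91. Within slide 1 Lcn2 was -0.03. Krt19 was 0.046 within slide 2, and -0.17 to 0.034 when single arrays were left out, above 0 without NP 1, NP 3 or MSC 2. Krt18 was -0.00022 within slide 1. The cause was not tested. At an unadjusted limma p under 0.05 the count over all probes ran from 229 to 1439 higher and from 184 to 1441 lower (341 and 628 with median scaling, against 1028 and 811 with cyclic loess), while no probe was lower at an FDR under 0.05 (0 in all 25). Vim kept an unadjusted p under 0.05 in 24 of the 25 alternatives, Timp1 in 23 and Krt8 in 22, while such a p was reached by Havcr1 and Clu in 5 each, by Cd44 in 1 and by Spp1, Lcn2, Krt18 and Krt19 in 0. Timp1 ranged from 0.41 to 0.62 and Vim from 0.35 to 0.50 when single arrays were left out.

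For replicate numbers 1 to 4, the deviations of same-numbered kidneys had a correlation of 0.20, 0.32, -0.35 and 0.05. The NP kidney of the same number was the closest for MSC 1 and MSC 2, while NP 4 was closest for MSC 3 and NP 2 for MSC 4. These 4 values cannot tell whether the numbers pair the kidneys, and NP 3 and MSC 3 lay on different slides. With the replicate number as a block, 0 probes were called in either direction, and Krt8 was 0.52, Vim 0.49 and Timp1 0.53. Havcr1 and Lcn2 lie near the background, and differences in Cd44 forms were not detectable with the probes at bases 1093, 1299 and 1967.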
